A study of Caenorhabditis elegans with 12 samples.

Results

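The F-box B and F-box C families of *C. elegans* were followed through RNA-Seq libraries of young adults of 4 genotypes. Members were all genes whose symbol is *fbxb* or *fbxc* with a number and whose value was above 0 in at least 1 library, which gave 152 of the 46761 genes measured, 104 *fbxb* and 48 *fbxc*. All 152 are annotated as protein coding. The libraries came from wild-type adults and from 3 mutants. The *ddx-23* mutant carries the allele n5705, the *lin-29* mutant has n836, and tm2497 is the allele of the *mab-10* mutant. Each genotype had 3 libraries, 12 in all. All 4 strains carry the reporter transgene *maIs105*, in which the *col-19* promoter drives GFP, so the wild-type is the reporter strain. Worms were age-synchronized hermaphrodites picked by hand and sequenced whole, so a lower level cannot be told apart from fewer cells that express the gene.

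LIN-29 is a zinc-finger transcription factor of the EGR type that ends larval development of the epidermis, and MAB-10 is its NAB co-factor. DDX-23 is a DEAD-box RNA helicase of the spliceosome, and its allele is a partial loss of function. The comparison of each mutant with the wild-type addresses which genes these proteins regulate in the adult.

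An F-box protein is the substrate-binding part of an SCF ubiquitin ligase. Its F-box binds a Skp1 protein (an SKR protein in the worm), which links it to a cullin and a RING protein, and the rest of the F-box protein holds the target that is to be ubiquitinated. *C. elegans* has far more F-box genes than most animals, most of them in large families that lie in clusters. The A, B and C families are told apart by the sequence that follows the F-box. The targets of most single members are not known, so the members below are described by family and position.

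Levels are given as FPKM, which is mapped fragments scaled to transcript length and to the size of the library. Because FPKM is per length, levels may be compared between genes. Differences are between group means on the log2(FPKM + 1) scale, where low genes show less than their true fold because of the added 1. Reads per library are unknown, so no counting error can be given.

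Levels of most members were low. The median member had a mean of 1.16 FPKM over the 12 libraries, 1.11 for *fbxb* and 1.86 for *fbxc* genes. The mean was under 1 FPKM in 64 of the 152 members, while 33.7% of all genes with a value above 0 were under 1. It was between 1 and 10 in 81 members, and at least 10 in 7. All 7 are *fbxc* genes (*fbxc-32*, *-44*, *-45*, *-47*, *-50*, *-51* and *-52*), whereas the highest *fbxb* gene, *fbxb-7*, averaged 8.76 FPKM. Of the members, 121 were above 0 in all 12 libraries and 14 were at 0 in at least 6. The members together summed to 353.8 ± 59.6 FPKM in the wild-type (SD, n = 3) and to 350.3 ± 35.5 in *ddx-23* mutants. The sum was 398.4 ± 17 FPKM with *lin-29* mutated and 393.2 ± 48.4 with *mab-10* mutated. These sums overlap between all genotypes and make 0.0273% to 0.0405% of the FPKM of a library.

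**Figure D1:**
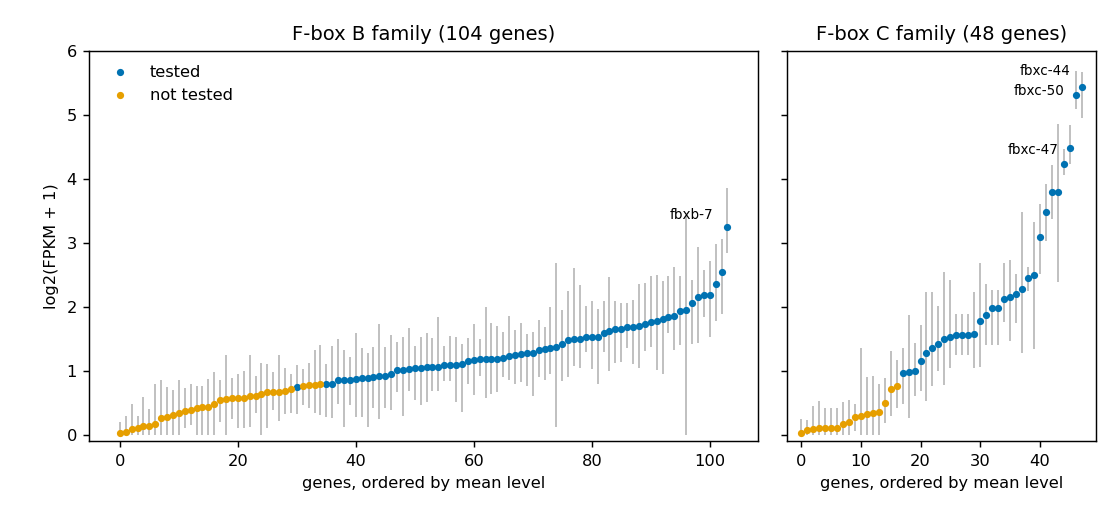
Level of each of the 152 members, on the log2(FPKM + 1) scale, with the genes of each family ordered along the horizontal axis by mean level. Points are means over 12 libraries, grey lines run from the lowest to the highest library, and colour marks whether a gene was tested. The *fbxc* genes *fbxc-44*, *fbxc-50* and *fbxc-47* are labelled at the top of the right panel, and *fbxb-7* is the highest point of the left panel.

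Of the 5 highest *fbxc* genes, 4 varied less over the 12 libraries than the other, *fbxc-51*. For *fbxc-44* and *fbxc-50* the libraries of some pairs of genotypes still did not overlap. In the wild-type libraries *fbxc-44* was at 38.99, 34.54 and 39.87 FPKM, and its range over all 12 libraries was 29.9 to 49.78. The second highest, *fbxc-50*, ranged from 33.12 to 50.32 FPKM. Next came *fbxc-47*, from 17.71 to 27.6, and *fbxc-45*, from 15.61 to 21.09. None of these 4 was called in any of the 6 comparisons below. In the earlier libraries alone, defined below, *lin-29* replicate 1 was the only *lin-29* library. There *fbxc-44*, *fbxc-47* and *fbxc-50* differed from the wild-type by 0.41, 0.57 and 0.44. In contrast, *fbxc-51* ranged from 4.25 to 27.85 FPKM, and its lowest 3 libraries were the *ddx-23* mutants. Among the 5 highest *fbxb* genes, *fbxb-7* ranged from 6.18 to 13.44 FPKM, and *fbxb-41*, *fbxb-84*, *fbxb-15* and *fbxb-67* each stayed under 8 FPKM in every library.

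The members lie in clusters, mainly on chromosome II. In the WBcel235 assembly 93 of the 152 are on II (58 *fbxb* and 35 *fbxc*), and 91 of these start within its first 5000000 bases. Another 22 are on IV, 16 on V, 10 on I, 8 on III and 3 on X. All *fbxc* genes are on II or IV. A second member lies within 5000 bases of 95 members. The median *fbxb* gene has 2 exons and the median *fbxc* gene has 3.

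Neighbours in a cluster differed widely in level. On II, 18 *fbxc* genes follow each other from *fbxc-24* to *fbxc-42*. Their means ran from 0.02 FPKM (*fbxc-7*) to 12.99 FPKM (*fbxc-32*), and these 2 genes stand next to each other in the row. *fbxc-7* was above 0 in only 2 libraries, at 0.19 FPKM in *lin-29* replicate 2 and 0.05 FPKM in *mab-10* replicate 2. In those and all other libraries its values equal those of an unnamed gene on V. Whether both genes share reads was not tested.

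**Figure D2:**
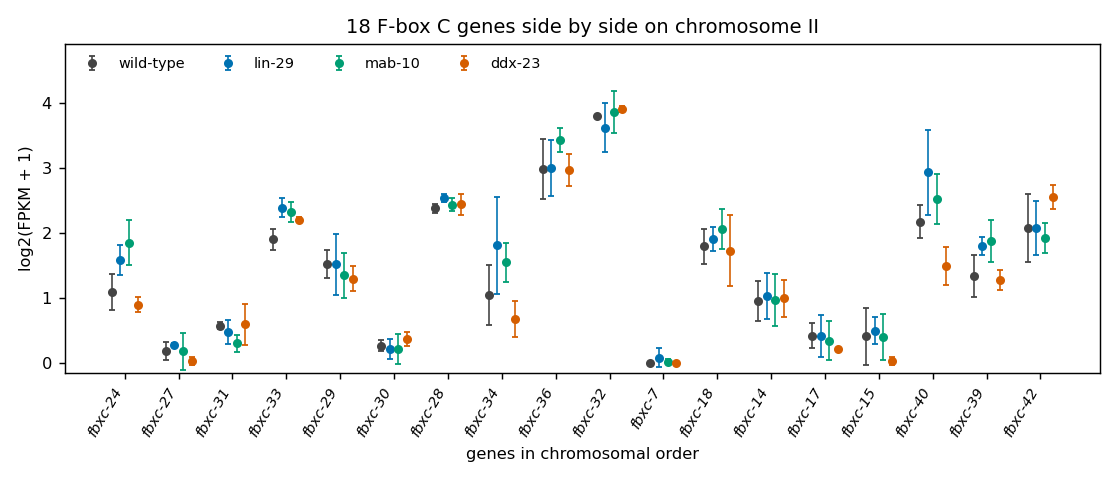
Mean level on the log2(FPKM + 1) scale of the 18 *fbxc* genes that follow each other on chromosome II, in chromosomal order. Points are means of 3 libraries in each genotype and bars are SD. Level changes from gene to gene along the row, and for *fbxc-34* and *fbxc-40* the *ddx-23* point is the lowest of the 4.

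A tandem array on IV, from 891239 to 911196 (19958 bases), holds 10 members with repeated symbols. Genes named *fbxc-4* or *fbxc-5* alternate there with genes named *fbxc-8* or *fbxc-12*, and the unit of 2 genes repeats every 4152 or 4153 bases. The 3 *fbxc-4* genes have the same value as each other in every library, as do the 2 *fbxc-5* genes and 3 of the 4 *fbxc-8* genes. Reads of such copies cannot be assigned to 1 of them, so each set holds 1 measurement under several gene names. Counts of members below count every copy. The *fbxc-4* copies were at 1.37 to 2.69 FPKM and the *fbxc-5* copies at 1.65 to 3.80 FPKM. The intervening *fbxc-8* copies reached at most 0.46 FPKM, and *fbxc-12* ranged from 0 to 1.55 FPKM.

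Of the 152 members, 101 (70 *fbxb* and 31 *fbxc*) reached 1 FPKM in 3 or more libraries and were tested, and the other 51 were not. The identical copies of *fbxc-4* and *fbxc-5* account for 5 of the 101. That is 66.4% of the members against 71.1% of all genes with a value above 0. Of the 51, 37 reached 1 FPKM in no library and 14 in 1 or 2. All 3 members on X are among those not tested. The tested members had a median of 1.91 FPKM against 13.7 for all 14199 tested genes. A gene was called at an adjusted p under 0.05 in limma, with Benjamini-Hochberg adjustment over all tested genes of a comparison and no fold threshold.

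In *lin-29* mutants 1 member rose and 0 fell, whereas 16.3% of all tested genes rose and 2.73% fell. The member that rose was *fbxc-23*, on chromosome II at 13595003 to 13596555 (minus strand, 5 exons), far from the main cluster. Its 3 wild-type libraries were at 0.92, 0.71 and 0.85 FPKM and its *lin-29* libraries at 3.96, 4.36 and 4.82 FPKM. The groups do not overlap, and each *lin-29* library was above every library of the other 3 genotypes. The difference was 1.56 (SE 0.20, limma adjusted p = 0.000359), from 0.87 ± 0.09 to 2.43 ± 0.12 on the log2 scale (SD, n = 3). The call held under every alternative setting and without each library in turn. The libraries were also divided by their numbers in the labels, into those up to 3244 and those from 3248, a division made with values of these data in view. The difference was 1.45 among the earlier libraries, where *lin-29* replicate 1 was the only *lin-29* library. It was 1.59 among the later ones, where wild-type replicate 3 was the only wild-type library.

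The same gene was at 2.0, 1.59 and 1.6 FPKM in *mab-10* mutants, above the wild-type libraries and below the *lin-29* ones. Its difference from the wild-type there was 0.58 (limma adjusted p = 0.158), which did not pass. In *ddx-23* mutants it was at 2.05, 1.42 and 0.92 FPKM, with a difference of 0.41 (limma adjusted p = 0.246). The *lin-29* level was above that of *mab-10* by 0.98 (limma adjusted p = 0.0105) and above that of *ddx-23* by 1.15 (limma adjusted p = 0.00248). The call between *lin-29* and *mab-10* was lost in 5 of 23 alternatives. These were quantile normalization, the fit of 2 genotypes only, the earlier libraries alone (0.73), the 2-fold threshold and leaving out *lin-29* replicate 3. The earlier libraries hold only replicate 1 of each of these mutants.

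Of the 10 nearest genes around *fbxc-23*, 8 were tested, and 2 rose and 0 fell in *lin-29* mutants, where 16.3% of all tested genes rose. The C-type lectin gene *clec-146*, the nearest tested gene on one side and on the same strand, rose by 1.56 (limma adjusted p = 0.000191). The glutathione S-transferase gene *gst-20*, also close by, rose by 1.16 (limma adjusted p = 0.00242). In contrast *csc-1*, which encodes a chromosomal passenger protein and lies between *fbxc-23* and *gst-20*, differed by 0.01 (limma adjusted p = 0.938). A further glutathione S-transferase gene, *gst-24*, differed by -0.49 (limma adjusted p = 0.605). These genes were chosen by position, and no test was made of whether neighbours move together.

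For the other 100 tested members in *lin-29* mutants, differences ran from -0.71 (*fbxb-17*) to 1.02 (*fbxb-101*). The median over all 101 was 0.11, against 0.186 over all tested genes. Leaving out 1 library moved the members' median between 0.0448, when wild-type replicate 2 was dropped, and 0.186, when replicate 3 was. Over all tested genes the median was then 0.139 and 0.258. The members' median was -0.0202 under median-ratio scaling, against 0.0289, and -0.398 under quantile normalization, against -0.128. With the 3 *lin-29* libraries all above the 3 wild-type ones there were 11 members, and with all below there were 7, while 24.1% of all tested genes lay above and 5.71% below. With the *fbxc-5* copies counted once, the 11 are 10. They include *fbxc-23*, *fbxc-54*, *fbxb-78*, *fbxc-33*, *fbxc-39*, *fbxb-65*, *fbxc-24* and *fbxc-28*. Among tested genes with a mean under 10 FPKM, 20.1% rose and 1.37% fell, while 1 of the 94 members in that range was called. At an unadjusted p under 0.05 there were 11 members, 10.9% against 33.8% of all tested genes. The count of 1 became 6 when wild-type replicate 3 was left out and 5 when *lin-29* replicate 1 was, while 25.4% and 22.6% of all tested genes were then higher. Quantile normalization, which forces the same distribution on every library, gave 1 higher and 11 lower, against 9.86% and 13.4% of all tested genes.

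In *mab-10* mutants 0 members rose and 0 fell, against 1.04% and 0.232% of all tested genes. At an unadjusted p under 0.05 there were 9 members, 8.91% against 21.1% of all tested genes, and the smallest adjusted p was 0.133, for *fbxc-24*. That gene was at 0.88, 0.96 and 1.67 FPKM in the wild-type and at 2.40, 1.95 and 3.7 FPKM in *mab-10* mutants, which do not overlap. The largest difference was 0.83 for *fbxb-101* (SE 0.48, limma adjusted p = 0.336), whose wild-type libraries were at 0.72, 0.35 and 3.5 FPKM and whose *mab-10* libraries were at 3.24, 2.21 and 3.33 FPKM. Wild-type replicate 3 was thus above all 3 *mab-10* libraries. The *mab-10* libraries all lay above the wild-type in 11 members (10 with the *fbxc-5* copies counted once) and all below in 2, against 14.8% and 3.23% of all tested genes. The median difference was 0.108, against 0.14 over all tested genes. Dropping *mab-10* replicate 1 made it 0.0193, against 0.173 over all tested genes, and dropping replicate 2 made it 0.2, against 0.136. Dropping wild-type replicate 2 made it 0.0458, against 0.11, and dropping replicate 3 made it 0.218, against 0.203. The members' median was 0.353 among the earlier libraries, against 0.137, and -0.106 among the later ones, against 0.0612. The earlier libraries hold *mab-10* replicate 1 alone of that genotype, and the later ones hold wild-type replicate 3 alone. The members' median was 0.0255 under median-ratio scaling, against -0.00209, and -0.232 under quantile normalization, against -0.0294. Among tested genes under 10 FPKM, 0.809% rose and 0.14% fell, and 0 of the 94 members in that range were called. Without wild-type replicate 3, 3 members were higher (*fbxc-20*, *fbxc-24* and *fbxc-43*), while 13.1% of all tested genes were.

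In *ddx-23* mutants 2 members rose and 1 fell, against 7.17% and 1.46% of all tested genes. The 2 that rose, *fbxc-43* and *fbxc-54*, and the 1 that fell, *fbxb-14*, are all on chromosome II. The difference for *fbxb-14* was the widest of any member in any comparison with the wild-type.

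*fbxb-14* lies at 582111 to 582749 on the minus strand and is the only tested member annotated with a single exon. Its level was 6.34, 2.64 and 9.69 FPKM in the wild-type and 0, 0.24 and 0.10 FPKM in *ddx-23* mutants. The *lin-29* libraries were at 4.54, 3.96 and 2.62 FPKM and the *mab-10* libraries at 6.83, 8.39 and 3.0 FPKM. All 3 *ddx-23* libraries thus lay far below the other 9, which overlap each other. The difference from the wild-type was -2.57 (SE 0.41, limma adjusted p = 0.00285). It was 2.06 between *lin-29* and *ddx-23* (limma adjusted p = 0.00506) and 2.58 between *mab-10* and *ddx-23* (limma adjusted p = 0.00419). All 3 calls held under every alternative setting and without each library in turn. Among the earlier libraries, which hold all of the *ddx-23* ones and wild-type replicates 1 and 2, the difference from the wild-type was -2.22 (limma adjusted p = 0.00358).

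The whole of *fbxb-14*, 639 bases, lies inside the protein-coding gene *W08F4.12* (582111 to 584421) on the same strand. Both are on the minus strand, so the base they share, 582111, is where both genes end. Reads from their shared part cannot be assigned with certainty to either gene. *W08F4.12* was at 3.72, 3.36 and 3.10 FPKM in the wild-type and at 0.19, 0 and 2.21 FPKM in *ddx-23* mutants. It too lay lower in the mutant in every library, with a difference of -1.49 that did not pass (limma adjusted p = 0.104). Its *mab-10* libraries were at 8.42, 4.35 and 1.35 FPKM, a wide spread. The gene that lies next to both on the other side, *W08F4.3*, differed by -0.03 (limma adjusted p = 0.925), and the nearest other member, *fbxb-34*, by 0.39 (limma adjusted p = 0.424).

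The gene *fbxc-43* (II, 4234903 to 4235996, minus strand) was at 1.08, 1.26 and 1.87 FPKM in the wild-type and at 5.44, 3.67 and 4.45 FPKM in *ddx-23* mutants. Its *lin-29* libraries were at 2.43, 1.31 and 1.76 FPKM and its *mab-10* libraries at 2.35, 3.13 and 2.69 FPKM. Every *ddx-23* library was above the other 9. The difference from the wild-type was 1.20 (SE 0.22, limma adjusted p = 0.00675), and the call held under every alternative setting, with 1.34 among the earlier libraries (limma adjusted p = 0.00331). The level was also above that of *lin-29* mutants, by 0.97 (the difference of *lin-29* from *ddx-23* was -0.97, limma adjusted p = 0.0104), a call lost among the earlier libraries and at the 2-fold threshold.

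Next to it on the same strand stands *fbxc-44*, the highest member of all, at 4236504 to 4237751. It was at 46.96, 48.47 and 49.78 FPKM in *ddx-23* mutants, all above the 3 wild-type libraries given earlier. The difference was 0.35 (limma adjusted p = 0.167) and did not pass. It did pass among the earlier libraries, at 0.39 (limma adjusted p = 0.00854), and in the fit of 2 genotypes only (limma adjusted p = 0.04). A difference of 0.23 in *mab-10* mutants did not pass either (limma adjusted p = 0.359).

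The third member called in *ddx-23* mutants was *fbxc-54*, the first member from the left end of II (31719 to 33611, plus strand). Its wild-type libraries were at 2.46, 2.38 and 2.55 FPKM and its *ddx-23* libraries at 5.44, 4.36 and 4.51 FPKM. In *lin-29* mutants it was at 3.11, 3.83 and 2.77 FPKM and in *mab-10* mutants at 3.25, 3.35 and 3.24 FPKM. All 9 mutant libraries were thus above all 3 wild-type libraries, which spread little. The difference in *ddx-23* was 0.73 (SE 0.17, limma adjusted p = 0.0207). That call was lost when any 1 *ddx-23* library, or wild-type replicate 1 or 2, was left out, and under quantile normalization. Among the earlier libraries the difference was 0.75 (limma adjusted p = 0.0117).

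**Figure D3:**
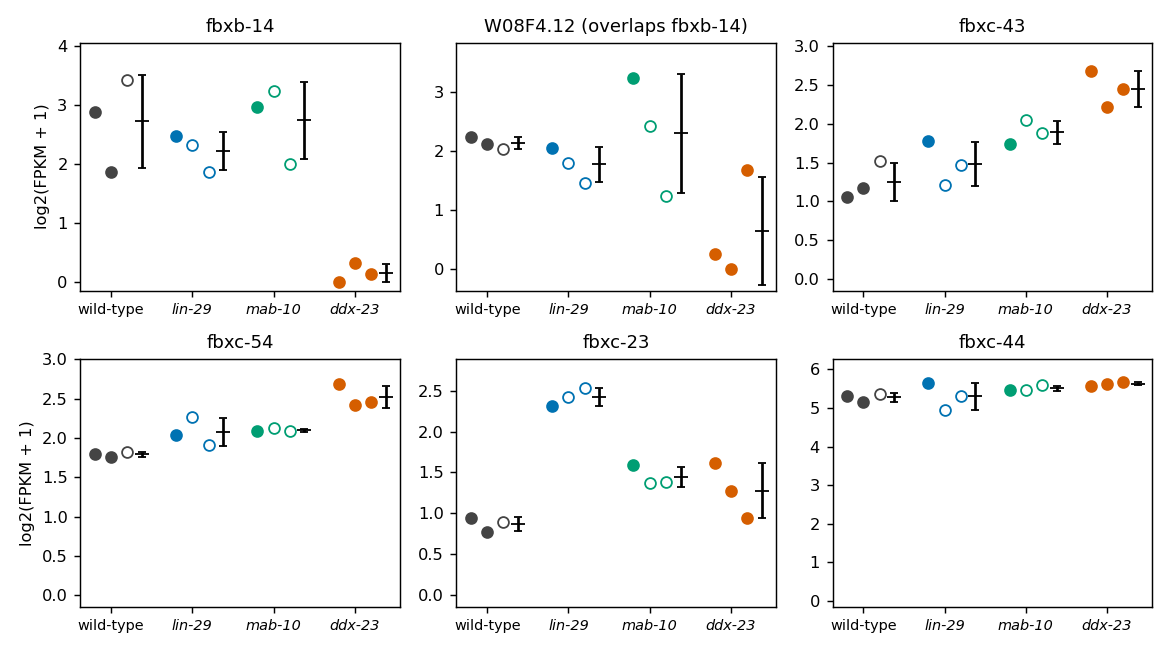
Level on the log2(FPKM + 1) scale of the 4 members called against the wild-type, with *W08F4.12*, which contains *fbxb-14*, and *fbxc-44*, which stands next to *fbxc-43*. Each point is a library, filled for library numbers up to 3244 and open from 3248, and the bar to the right is the mean with its SD (n = 3). The *ddx-23* points of *fbxb-14* lie below 0.4 and those of the *lin-29* mutant for *fbxc-23* above 2.2.

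Across the 101 tested members the median difference in *ddx-23* mutants was -0.0508, against 0.0937 over all tested genes, and 43 members had a positive difference. The members' median was above 0 without wild-type replicate 3 (0.0788, against 0.151 over all tested genes) or *ddx-23* replicate 2 (0.00742, against 0.0971). It was also above 0 among the earlier libraries (0.0788, against 0.151). Dropping wild-type replicate 2 made it -0.148, against 0.065, and dropping *ddx-23* replicate 3 made it -0.133, against 0.0899. Dropping wild-type replicate 1 made it -0.08, against 0.0695, and it was -0.313 under quantile normalization, against -0.0707. The members' median was below that of all tested genes in each of these settings. By exon number, the median was -0.131 for the 56 tested members with 2 exons, against 0.158 for all tested genes with 2 exons. It was 0.0445 for the 44 members with 3 or more, against 0.089. After scaling by the median ratio between libraries, the medians were -0.123 for members and -0.00696 for all tested genes. All 3 *ddx-23* libraries lay above the wild-type in 10 members (9 with the *fbxc-5* copies counted once) and below it in 9, against 24.1% and 9.35% of all tested genes. Among tested genes under 10 FPKM, 6.78% rose and 0.607% fell, and 3 of the 94 members in that range were called. The 9 include *fbxb-14*, *fbxb-65*, *fbxc-40* and *fbxc-51*, and the 10 include *fbxc-43*, *fbxc-44* and *fbxc-58*.

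**Figure D4:**
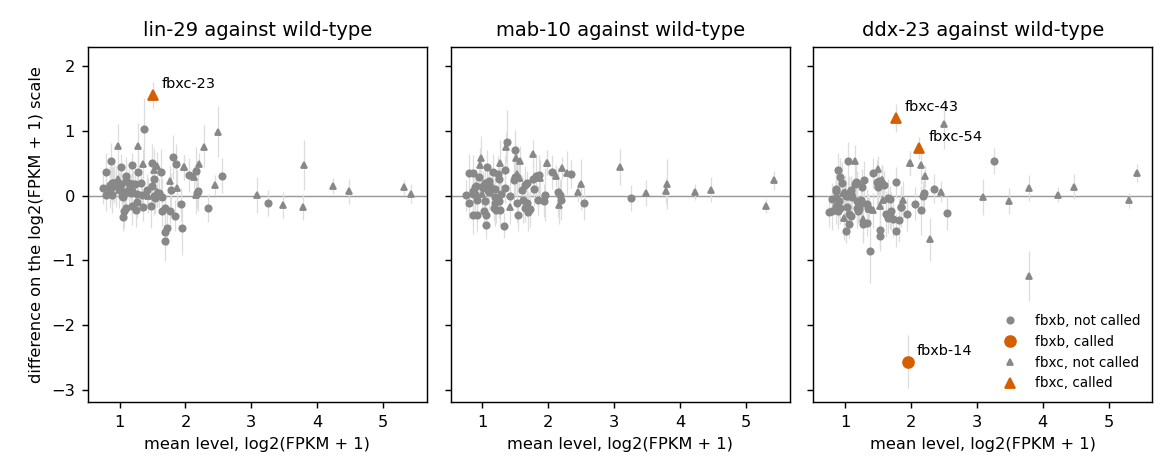
Difference of each mutant from the wild-type, on the log2(FPKM + 1) scale, against the mean level over 12 libraries, for the 101 tested members. Bars are standard errors, circles are *fbxb* and triangles *fbxc* genes, and the larger coloured symbols passed an adjusted p of 0.05. In the *lin-29* panel 1 member is coloured, in the *mab-10* panel 0 and 3 in the *ddx-23* panel.

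A few members lay on the same side of the wild-type in all 3 mutants, without overlap. These comparisons share the 3 wild-type libraries, so they are given side by side and not as 3 separate results. Of all tested genes, 24.1% (*lin-29*), 14.8% (*mab-10*) and 24.1% (*ddx-23*) lay above the wild-type, and 5.71%, 3.23% and 9.35% below. The share of all tested genes that did so in all 3 mutants was not counted, so these members are not set apart from other genes. The *fbxc-5* copies were at 2.05, 2.60 and 1.65 FPKM in the wild-type and from 2.72 to 3.80 FPKM in the mutants. Their differences were 0.44 (*lin-29*), 0.51 (*mab-10*) and 0.50 (*ddx-23*). In the same order, for *fbxc-33* the differences were 0.48, 0.42 and 0.30, and for *fbxc-54* they were 0.28, 0.31 and 0.73. On the lower side stood *fbxb-85*, with -0.33, -0.46 and -0.44. Of these 12 differences only that of *fbxc-54* in *ddx-23* passed the test.

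Between mutants, the *lin-29* level was above the *ddx-23* level in 9 members and below it in 2, against 14.2% and 6.99% of all tested genes. Apart from *fbxb-14* and *fbxc-23*, the 9 were *fbxc-51*, *fbxc-40*, *fbxc-20*, *fbxb-101*, *fbxb-65*, *fbxb-78* and *fbxb-100*. The 2 were *fbxc-43* and *fbxb-7*. Between *lin-29* and *mab-10* the call was of *fbxc-23* alone (1 higher and 0 lower, against 7.28% and 2.13%). Between *mab-10* and *ddx-23*, 3 members were higher and 0 lower, against 3.19% and 4.89%. They were *fbxb-14*, *fbxc-51* (1.42, limma adjusted p = 0.0477) and *fbxc-24* (0.96, limma adjusted p = 0.0308). The *fbxc-51* call was lost in 12 of 22 alternatives, with 10 of the 12 that leave out a library among them, and with the library number as a term it was 0.91 (limma adjusted p = 0.0951). The *fbxc-24* call was lost in 6 of 22, when *mab-10* replicate 3 or any 1 *ddx-23* library was left out, at the 2-fold threshold and with the library number as a term (0.77, limma adjusted p = 0.0562). Libraries did not overlap, with *lin-29* above *mab-10*, in 7 members and below it in 6, against 15.4% and 8.49% of all tested genes. With *lin-29* above *ddx-23* there were 19 members and below it 4, against 27.2% and 15.4%. With *mab-10* above *ddx-23* there were 16 and below it 7, against 20.8% and 16%. Genes such as *fbxb-100*, *fbxc-58*, *fbxc-33*, *fbxb-85* and *fbxc-34* fall outside the rule for named genes and were named after their values were seen.

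The highest of them is *fbxc-51* (II, 868814 to 871699). Its *lin-29* libraries were at 11.75, 25.75 and 27.85 FPKM and its *ddx-23* libraries at 4.64, 4.25 and 8.23 FPKM, a difference of 1.72 (SE 0.39, limma adjusted p = 0.01). The wild-type libraries were at 11.70, 10.40 and 24.20 FPKM, above every *ddx-23* library. The difference of *ddx-23* from the wild-type, -1.25, did not pass (limma adjusted p = 0.0758). It passed with the library number as a term (-0.99, limma adjusted p = 0.033), among the earlier libraries (-0.89, limma adjusted p = 0.0434), without *lin-29* replicate 1 (limma adjusted p = 0.0395), under median-ratio scaling (-1.35, limma adjusted p = 0.0416) and under quantile normalization (-1.48, limma adjusted p = 0.0194).

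The wild-type replicate that is high in *fbxc-51* is replicate 3, and the *lin-29* replicates that are high are 2 and 3. These 3 libraries carry the later library numbers. The *mab-10* level of *fbxc-51* differed from the wild-type by 0.47 among the earlier libraries and by -0.50 among the later ones. It thus did not rise with library number as the wild-type did. The later libraries are wild-type replicate 3, *lin-29* replicates 2 and 3 and *mab-10* replicates 2 and 3, and the *ddx-23* mutants have none. With genotype in the model, later libraries were higher in 7 members and lower in 3, against 25.2% and 8.12% of all tested genes. The 7 were *fbxc-58* (0.97), *fbxb-101* (0.98), *fbxc-20* (0.81), *fbxc-34* (0.79), *fbxc-51* (0.76), *fbxb-77* (0.57) and *fbxc-52* (0.41). The 3 were *fbxb-20*, *fbxc-32* and *fbxc-42*.

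Thus 3 of the members called between *lin-29* and *ddx-23* (*fbxc-51*, *fbxb-101* and *fbxc-20*) were also higher in later libraries. With the library number as a term of the model, *fbxc-51* differed by 1.21 between *lin-29* and *ddx-23* (limma adjusted p = 0.0225) and *fbxb-101* by 1.24 (limma adjusted p = 0.0464). For *fbxc-20* the value was 0.58 (limma adjusted p = 0.0884), so that call was lost. Among the earlier libraries alone, where *lin-29* and *mab-10* have 1 library each whose spread is assumed to be that of the other genotypes, *fbxc-51* differed by 0.97 (limma adjusted p = 0.0831). Counts of members that passed are not given for that setting.

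*fbxb-101* (I, 14088087 to 14089858) was at 0.72 and 0.35 FPKM in the earlier wild-type libraries and at 3.5 FPKM in the later one. In *lin-29* mutants it was at 1.17 FPKM in the earlier library and at 5.42 and 5.31 FPKM in the later ones. The *mab-10* libraries, at 3.24, 2.21 and 3.33 FPKM, did not follow that division, since the earlier one was not the lowest. The *ddx-23* libraries were at 0.09, 0.17 and 0.36 FPKM, and only wild-type replicate 2 fell within their range. The difference between *lin-29* and *ddx-23* was 1.89 (SE 0.48, limma adjusted p = 0.0188). It was 0.85 among the earlier libraries, where *lin-29* replicate 1 was the only *lin-29* library. The call was lost when *lin-29* replicate 2 or 3 or *ddx-23* replicate 1 or 2 was left out. The neighbouring *fbxb-100*, on the opposite strand, differed by 0.62 (limma adjusted p = 0.0457), and most alternative settings lost that call.

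The gene *fbxc-20* was at 1.07, 2.66 and 1.96 FPKM in *lin-29* mutants and at 0.46, 0.26 and 0.2 FPKM in *ddx-23* mutants, a difference of 1.11 (SE 0.34, limma adjusted p = 0.0406). Its wild-type libraries, at 0.27, 0.26 and 1.85 FPKM, again set replicate 3 apart. The call was lost in 10 of 22 alternatives, 6 of which left out a library.

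The gene *fbxc-40*, near the end of the chromosome II row, was at 3.62, 10.12 and 7.61 FPKM in *lin-29* mutants and at 1.60, 1.43 and 2.55 FPKM in *ddx-23* mutants. The difference was 1.43 (SE 0.33, limma adjusted p = 0.0113), and it was lost without *lin-29* replicate 2 and among the earlier libraries (0.71, limma adjusted p = 0.111). *fbxb-65* (V) was at 1.51, 1.86 and 1.88 FPKM in *lin-29* and at 0.22, 0.22 and 0.77 FPKM in *ddx-23* mutants, with a difference of 0.99 (SE 0.20, limma adjusted p = 0.00542). That call was lost among the earlier libraries (0.86, limma adjusted p = 0.0708) and at the 2-fold threshold. For *fbxb-78* (IV) the libraries were at 2.07, 2.25 and 1.68 FPKM and at 0.58, 0.99 and 0.94 FPKM, with a difference of 0.71 (limma adjusted p = 0.0203). Its call was lost in 5 of 22 alternatives, among them the earlier libraries (0.75, limma adjusted p = 0.054) and leaving out *lin-29* replicate 2 or *ddx-23* replicate 1. In all 3 genes the 2 groups do not overlap and the wild-type mean lies between them.

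In the other direction, *fbxb-7* was at 7.67, 7.53 and 6.58 FPKM in *lin-29* and at 10.55, 11.91 and 13.44 FPKM in *ddx-23* mutants. The difference was -0.65 (limma adjusted p = 0.0415), and leaving out 1 library ended the call in 8 of 12 cases. The wild-type libraries, at 7.25, 6.18 and 10.88 FPKM, overlap the *ddx-23* ones because of replicate 3. Without that library, *fbxb-7* was higher in *ddx-23* mutants by 0.75 (limma adjusted p = 0.0180).

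*fbxc-58* (IV, 6 exons) had the smallest adjusted p by library number (limma adjusted p = 0.00147). Its wild-type libraries were at 2.38, 2.25 and 4.06 FPKM and its *ddx-23* libraries at 7.66, 7.52 and 6.52 FPKM. They do not overlap, but the difference of 1.11 did not pass (limma adjusted p = 0.115). With the library number as a term it was 1.43 (limma adjusted p = 0.000473), and among earlier libraries alone 1.31 (limma adjusted p = 0.00117). The *lin-29* libraries were at 3.45, 8.69 and 9.03 FPKM and the *mab-10* libraries at 1.53, 5.82 and 3.6 FPKM, with the earlier library the lowest in both.

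**Figure D5:**
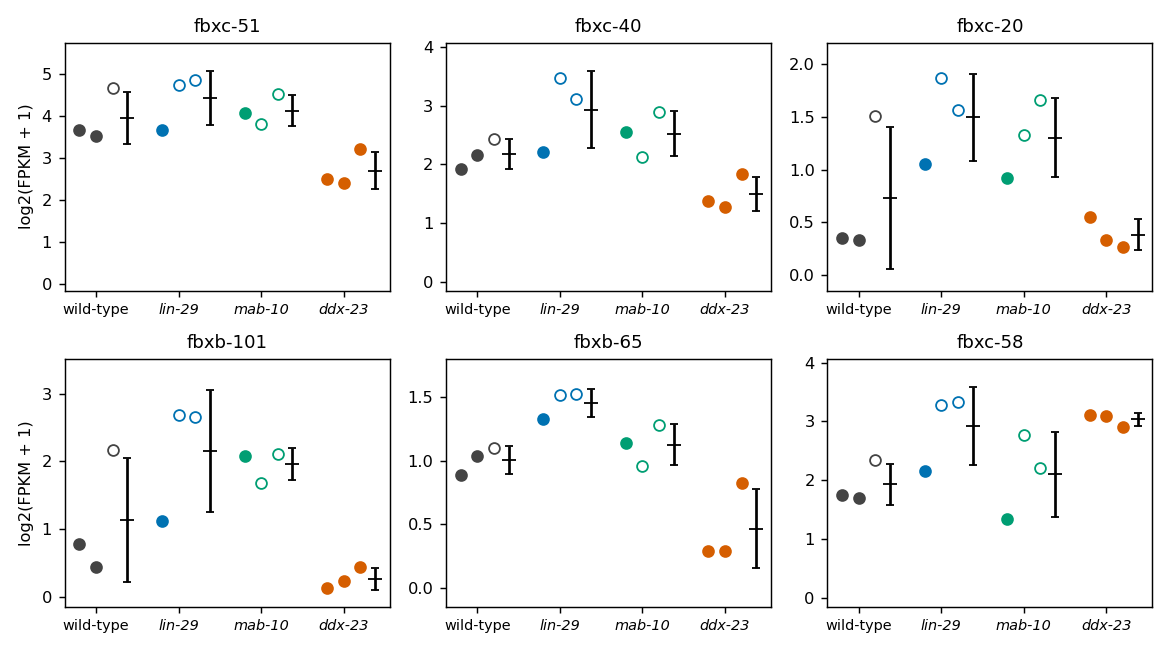
Level on the log2(FPKM + 1) scale of 5 members called between *lin-29* and *ddx-23* mutants and of *fbxc-58*. Each point is a library, filled for library numbers up to 3244 and open from 3248, and the bar to the right is the mean with its SD (n = 3). The open wild-type and *lin-29* points lie above the filled ones in every panel, and all *ddx-23* points are filled.

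Genes for the partners of F-box proteins were followed as well. Of the SCF core and its regulators, 37 genes were tested, and their median level was 51.5 FPKM. In *lin-29* mutants 5 rose (13.5%, against 16.3% of all tested genes) and 0 fell, and 0 were called in *mab-10* or *ddx-23* mutants, where 3 each had an unadjusted p under 0.05. The 5 were the Skp1-related genes *skr-3* (0.96, limma adjusted p = 0.00568), *skr-4* (2.04, limma adjusted p = 0.00628) and *skr-5* (2.43, limma adjusted p = 0.0173), the cullin gene *cul-6* (0.65, limma adjusted p = 0.0464), and *cand-1* (0.29, limma adjusted p = 0.0185), whose product exchanges the substrate receptors of cullin ligases. The 3 *skr* genes called were 15.8% of the 19 tested Skp1-related genes, of which 0 fell. The median difference of those 19 in *lin-29* mutants was -0.208, below the 0.186 over all tested genes. In worms SKR-3, SKR-4, SKR-5 and CUL-6 are known to act together in the response to intracellular infection. The general SCF genes *cul-1*, *rbx-1* and *skr-1* differed by 0.12, -0.11 and 0.15 in *lin-29* mutants and were not called (limma adjusted p of 0.255, 0.424 and 0.215).

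Of the F-box A family 94 of 170 genes were tested, with 13 higher and 4 lower for *lin-29*, 1 higher for *mab-10* and 7 higher for *ddx-23*. These are 13.8% and 4.26% for *lin-29*, against 16.3% and 2.73% of all tested genes, 1.06% for *mab-10*, against 1.04%, and 7.45% for *ddx-23*, against 7.17%. In the B family 0 of 70 were called in *lin-29* mutants, and in the C family 1 of 31. The difference between families was not tested. Of 9 conserved F-box genes, such as *lin-23* and *sel-10*, 0 were called against the wild-type, with 2 at an unadjusted p under 0.05 for *lin-29* and 1 for each other mutant. Between *lin-29* and *ddx-23* mutants 2 of the 9 were higher (22.2%, against 14.2% of all tested genes) and 0 lower. These were *fbxl-1* and *dre-1*, which acts in developmental timing, while the median difference of the 9 was -0.164. Between *mab-10* and *ddx-23* mutants *dre-1* alone was higher (11.1%, against 3.19%). The *bath* genes, a family of BTB and MATH proteins that serve CUL-3 ligases, had 31 tested, with 2 higher for *lin-29* (6.45%, against 16.3%) and 3 for *ddx-23* (9.68%, against 7.17%).

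Markers of several tissues moved with genotype. The summed level of 12 sperm markers was 65.4 to 105.2 FPKM in the wild-type, 119.3 to 176.6 in the *lin-29* mutant and 131.7 to 239.3 in the *ddx-23* mutant, with 3 of the 9 tested markers called higher for the former and 2 for the latter. The sum of 7 intestinal markers was 17330 to 17840 FPKM in the wild-type and 9208 to 10090 in *lin-29* mutants. There 3 were higher and 3 lower, with a median difference of 0.116. In *mab-10* mutants the sum was 12380 to 14790 FPKM, where 0 were called and 5 of the 7 had an unadjusted p under 0.05. The median difference there was -0.276. In *lin-29* mutants 4 of 8 epidermis markers rose and 1 fell, with a median difference of 0.371. Their sum was 261.2 to 636.2 FPKM in the wild-type and 218.3 to 299.9 in *lin-29* mutants. In *ddx-23* mutants the sum was 648.3 to 722.5 FPKM, where 1 was higher and the median difference was 0.0704. Of 8 neuron markers 0 were called in *mab-10* mutants, though 6 had an unadjusted p under 0.05, with sums of 284.6 to 403.4 FPKM in the wild-type and 336.5 to 486.8 in the mutant. Of 7 body wall muscle markers 4 were higher in *ddx-23* mutants, and their sum went from 1701 to 2152 FPKM in the wild-type to 3067 to 3121 FPKM. The 17 oocyte and germline markers had 0 calls against the wild-type, and 1 was at an unadjusted p under 0.05 in each mutant. Of 12 early embryo markers 6 were tested, also with 0 calls against the wild-type. No marker in any list was at 0 in every library, and their part in the members' differences was not tested. Transcripts of the mutated genes were present in their own mutants, *lin-29* at 6.23 to 8.66 FPKM against 2.74 to 3.39 in the wild-type, so their levels do not check the labels.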

How the data were processed

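RNA of about 200 young adults in 3 biological replicates per genotype was sequenced. Per the labels and the Methods, the authors mapped reads with STAR 2.5.3a to the WS258 (WBcel235) reference, estimated gene levels with RSEM 1.3.0 and deposited log2 values of FPKM plus 1. RSEM divides reads that map to several genes, so near-identical copies and overlapping genes are uncertain. FPKM were recovered from these values. Library FPKM sums were 1038344 to 1130220, and read depth is unknown. The DESeq2 test of the Methods needs counts and was not used. Symbols were matched for 43780 of 46761 identifiers, and positions come from Ensembl release 115 (WBcel235).

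The 14199 genes that reached 1 FPKM in 3 or more of the 12 libraries were tested with limma 3.58.1 (R 4.3.3; trend, robust) over the 4 genotypes. The model was tested on simulated data. Alternatives were no filter, 6 libraries in the filter, a pseudocount of 0.1, median-ratio scaling, quantile normalization, 2 genotypes only, a replicate block, the library number, a 2-fold threshold and leaving out each library. Named genes were the members called against the wild-type, the 5 highest of each family, up to 10 called between mutants, those with identical values and the largest difference in each comparison. Other members were named after their values were seen. Members and lists were chosen with earlier results of these data known. Python 3.11.15, pandas 2.3.3, numpy 2.4.6 and matplotlib 3.10.9 made tables and figures.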

Additional observations from a re-analysis of the deposited data

How the results depend on the processing

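Across 22 or 23 alternatives each, no called difference of a member changed direction. In the 19 calls of a member in a comparison there were 420 repeats, of which 337 stayed past the threshold and 83 did not. Median-ratio scaling brought the median difference of all tested genes from 0.186 (*lin-29*), 0.14 (*mab-10*) and 0.0937 (*ddx-23*) to 0.0289, -0.00209 and -0.00696. In *lin-29* against the wild-type, 1 member was higher and 0 lower, against 16.3% and 2.73% of all tested genes. Higher members numbered 3 with the library number as a term, against 20.2%. Lower ones numbered 1 under median-ratio scaling, 11 under quantile normalization and 1 with the library number, against 8.2%, 13.4% and 3.85%. In *mab-10*, with 0 and 0, 1 was higher with the library number, against 5.48% of all tested genes. In *ddx-23*, with 2 and 1, the higher count was 1 under quantile normalization, 4 with 2 genotypes only and 5 with earlier libraries only. In these settings 5.0%, 8.06% and 26.9% of all tested genes were higher. At the 2-fold threshold the higher count was 1, against 667 of the 14199 tested genes. The lower count was 2 under median-ratio scaling, 3 under quantile normalization, 2 with the library number and 2 with earlier libraries only. The shares of all tested genes there were 3.0%, 4.82%, 4.54% and 6.97%. Between *lin-29* and *mab-10* the higher count of 1 became 0 under quantile normalization, 0 with 2 genotypes only and 3 with the library number. In these settings 6.31%, 3.79% and 13.4% of all tested genes were higher. At the 2-fold threshold the higher count was 0, against 753 of the 14199 tested genes. The lower count of 0 became 1 under quantile normalization and 1 with the library number, against 5.2% and 5.97%. Between *lin-29* and *ddx-23*, with 9 and 2, the lower count was 0 at the 2-fold threshold, against 431 of the 14199 tested genes. Between *mab-10* and *ddx-23*, with 3 and 0, 1 was lower under quantile normalization and 1 with the library number, against 6.09% and 8.79%. Counts from earlier libraries only are left out for *lin-29* and *mab-10*, which have 1 library each there. The cause of these changes was not tested. Later libraries alone allowed no comparison with *ddx-23* mutants, which have none there.

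Leaving out 1 library gave 1 to 6 higher and 0 lower members in *lin-29* mutants. Of all tested genes 9.69% to 25.4% were then higher and 1.27% to 8.15% lower. In *mab-10* mutants 0 to 3 and 0 members passed, against 0.296% to 13.1% and 0.0775% to 2.61% of all tested genes. In *ddx-23* mutants 1 to 3 and 1 to 2 members passed, against 3.63% to 11.5% and 0.486% to 2.68%. Between mutants, leaving out 1 library gave 0 to 2 and 0 to 2 for *lin-29* against *mab-10*. Of all tested genes 4.08% to 9.65% were then higher and 1.01% to 7.44% lower. For *lin-29* against *ddx-23*, 4 to 12 and 1 to 3 members passed, with 8.5% to 19.6% and 3.81% to 13.8% of all tested genes. For *mab-10* against *ddx-23*, 1 to 5 and 0 to 1 passed, with 0.627% to 8.54% and 2.03% to 6.56%. The 4 of *lin-29* against *ddx-23* came without *lin-29* replicate 2, and 5 without *ddx-23* replicate 1. For *mab-10* against *ddx-23*, 5 came when wild-type replicate 3, or else *lin-29* replicate 1, was left out, and 1 without *mab-10* replicate 3 or *ddx-23* replicate 1 or 2.

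Replicate numbers are shared between genotypes, but the deviations of libraries with the same number correlated from -0.298 to 0.46, and the labels name no shared day or culture. The numbers were not taken as pairs. With the replicate block, 2 members were lower in *ddx-23* mutants in place of 1, against 1.63% of all tested genes. The added one was *fbxc-51*. Between *lin-29* and *ddx-23* the block gave 12 higher in place of 9, against 16.5%, with *fbxb-88*, *fbxc-34* and *fbxc-24* added. Between *mab-10* and *ddx-23* it gave 4 in place of 3, against 5.1%, with *fbxb-101* added.

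Members with low levels limit these comparisons. The standard error of a tested member's difference had a median of 0.257, against 0.22 over all tested genes, and reached 0.483 for *fbxb-101*. With 3 libraries a group, a p weighs a difference only against the spread among these libraries. In the main model that spread is estimated over the 12 libraries of all 4 genotypes and adjusted by that of other genes.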
